A study of Mus musculus with 35 samples.

Results

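The basement membrane components were 10 genes chosen by name, namely Col4a1, Col4a2, Lama1, Lamb1, Lamc1, Nid1, Nid2, Hspg2, Sparc and Agrn, out of 44853 genes in the induction table. All 10 were also among the 6275 genes of the siRNA table, which lists only genes that the authors had called responsive to GATA6. RNA-seq was made from KH2 mouse ES cells (C57BL/6 x 129/Sv) that carry a single-copy doxycycline (Dox) inducible GATA6 transgene, grown in serum with LIF on feeder fibroblasts. In the induction series 3 libraries each were made before Dox (0 h), after 16 and 24 h, after 48 and 72 h, and after 96 and 168 h of Dox (1 µg/mL). XEN cells, a stem cell line of the extra-embryonic endoderm (X10, CD1 wild type) without the transgene, gave 2 libraries. XEN cells were grown in serum on feeders as well, but without LIF. The siRNA series held 6 libraries with a non-targeting siRNA (siCTL) and 6 with siRNA against Oct4 (siOct4), both after 48 h of Dox, in 1 clone of the inducible cells. Which clone gave the induction series is not given in the sources used here. Feeders were depleted by adsorption before lysis, so some of their RNA can remain. The study's methods for RNA-seq state this depletion for the inducible ES cells and do not name XEN cells there. The study's methods call the replicates of the induction series and of XEN cells independent.

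Basement membranes are thin extracellular sheets on which epithelia rest. Laminin, a trimer of an alpha, a beta and a gamma chain, polymerises on the cell surface, collagen IV forms a second network, and nidogens and the heparan sulfate proteoglycans perlecan and agrin link both networks. Primitive endoderm (PrE) lays down an early basement membrane of the mouse embryo, and its parietal descendants secrete the thick Reichert's membrane, which is rich in laminin and collagen IV.

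The 2 collagen IV genes lie head to head on chromosome 8 of mm10, and their annotated first exons overlap by 22 bases. This stretch, chr8:11312805-11312826, written on the strand of Col4a2, is shown because the levels of the pair are compared below. RefSeq promoter windows (GRCm38.p6, 250 bases before an annotated start) were found for 7 of the 10 members in 8 windows, Agrn having 2. The windows of Hspg2 (chr4:137468553-137468768, plus strand), Lamb1 (chr12:31265043-31265233, plus strand), Nid1 (chr13:13437352-13437550, plus strand) and Agrn (chr4:156197489-156197738, minus strand) are shown where no annotated exon covers them, because these 4 genes followed different time courses. Capitals mark the GC box GGGCGG or its reverse CCGCCC.
Col4a1 and Col4a2 overlap: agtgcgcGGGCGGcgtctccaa
Hspg2: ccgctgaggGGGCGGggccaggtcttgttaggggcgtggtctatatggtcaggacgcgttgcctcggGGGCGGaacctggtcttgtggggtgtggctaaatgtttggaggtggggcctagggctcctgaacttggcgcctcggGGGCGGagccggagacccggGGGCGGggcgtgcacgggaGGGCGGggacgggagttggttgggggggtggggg
Lamb1: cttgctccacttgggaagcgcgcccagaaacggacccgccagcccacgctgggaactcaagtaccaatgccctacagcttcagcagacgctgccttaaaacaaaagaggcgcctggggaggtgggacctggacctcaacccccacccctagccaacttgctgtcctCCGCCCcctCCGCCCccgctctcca
Nid1: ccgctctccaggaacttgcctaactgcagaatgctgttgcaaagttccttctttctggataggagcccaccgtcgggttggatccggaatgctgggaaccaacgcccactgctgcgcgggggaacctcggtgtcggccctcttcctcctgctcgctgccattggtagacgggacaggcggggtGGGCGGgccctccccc
Agrn: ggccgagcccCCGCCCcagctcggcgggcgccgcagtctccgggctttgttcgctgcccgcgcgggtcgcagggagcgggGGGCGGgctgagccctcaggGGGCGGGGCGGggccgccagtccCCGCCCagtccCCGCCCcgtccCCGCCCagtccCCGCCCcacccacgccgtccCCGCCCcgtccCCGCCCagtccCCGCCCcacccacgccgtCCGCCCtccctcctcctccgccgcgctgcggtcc

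The GC box stood in the windows of 5 of the 7 genes, against 32.7% of all 32851 mouse windows of the same length. It occurred 12 times in the Agrn window shown, overlaps included, and 5, 2 and 1 times in those of Hspg2, Lamb1 and Nid1. None of the 4 GATA hexamers searched on both strands (TGATAA as the first, AGATAA as the second, TGATAG as the third and AGATAG as the fourth) was in any of the 8 windows, while 26.5% of all windows held at least 1. The SOX-type hexamer ATTGTT, held by 9.42% of all windows, and the octamer ATGCAAAT, held by 1.60%, were likewise not in these letters. The windows were 54.0% (Sparc) to 83.6% (Agrn) G or C, against a median of 52.4% over all windows. Matches are letters only, and their absence from these windows says nothing of binding elsewhere.

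Gata6 was at 0.193 to 0.375 TPM before Dox, at 129 to 138 TPM by 16 h, at 317 to 370 TPM by 168 h, and at 341 to 352 TPM in XEN cells. All 7 PrE markers listed rose at 168 h and all 6 pluripotency markers fell. TPM is a gene's share of the transcripts in its library, so sequencing depth is unknown, and fewer expressing cells cannot be told apart from less RNA per cell. Of 16 fibroblast markers for feeder RNA, 15 were tested and 8 rose at 168 h, while none passed the test at 16 h. Their summed level was 115 to 262 TPM at 0 h, 218 to 445 TPM at 168 h and 455 to 462 TPM in XEN cells, and none was at 0 in all libraries except 1 in XEN cells. The summed level of the members was 513 to 667 TPM, 37458 to 38635 TPM and 19585 to 19851 TPM in the same groups. In XEN cells Acta2 (173 TPM) and Tagln (117 TPM) were the highest fibroblast markers. At 168 h they were at 24.9 and 23.3 TPM. Against 168 h, 3 of the 15 tested markers were called higher in XEN cells (4.73% of all genes) and 4 lower (9.17%). The part of feeder RNA in the members' levels was not tested. In the third library of 72 h the fibroblast markers summed to 394 TPM, against 105 and 122 TPM in the others, and 9 of 10 members had their lowest value of that group there. The third library was also lowest for 10 of 10 members at 48 h and for 7 of 10 at 24 h, where the PrE markers summed to 1083 TPM (1469 and 1579 TPM in the others) and 333 TPM (547 and 559 TPM). At 0 h and at 16 h the third library was instead the highest for 8 of 10 members. The fibroblast markers summed there to 262 TPM (169 and 115 TPM in the others) and 372 TPM (259 and 237 TPM).

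Basement membrane transcripts rose early and steeply. Together the 10 members made up 0.0571% ± 0.0084 (SD, n = 3) of all transcripts before Dox and 0.172% ± 0.011 at 16 h. The share grew to 0.679% ± 0.081 at 48 h, to 1.58% ± 0.038 by 96 h and to 3.81% ± 0.060 by 168 h. In XEN cells the share was 1.97% ± 0.019 (n = 2). At 168 h Sparc ranked as number 2 and Col4a1 as number 4 of all genes by mean TPM, and the 3 laminin chains ranked 21 to 25, whereas at 0 h the members ranked from 1340 (Lamc1) to 9163 (Col4a2).

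A gene was called when limma, fitted over all genes on log2(TPM + 1), gave an adjusted p-value under 0.05 and a log2 change past 1. Against 0 h, 7 of 10 members were called higher at 16 h (1.97% of the 15057 genes tested) and 7 at 24 h (3.24% of all genes). The number was 8 at 48 h (9.14%), then 10 at 72 h (14.7%), 10 by 96 h (15.4%) and 9 by 168 h (22.6%), and no member was called lower at any time. The 7 members called from 16 h onwards at every time were both collagen IV chains, the 3 laminin chains, Hspg2 and Sparc. Hspg2 lay at the edge at 16 h, with a log2 change of 1.01 that came to 0.98 after median-of-ratios rescaling and to between 0.97 and 0.99 without the first 0 h, the second 16 h or the third 16 h library, all short of the fold. Nid1 joined at 48 h and Nid2 at 72 h, while Agrn was past the fold at 72 and 96 h only, and also at 48 h without the third 0 h or the third 48 h library. The median log2 change of the members was 1.86 at 16 h, 3.74 at 48 h and 6.11 at 168 h, beside 0.02, 0.00 and 0.09 over all genes tested.

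**Figure D1:**
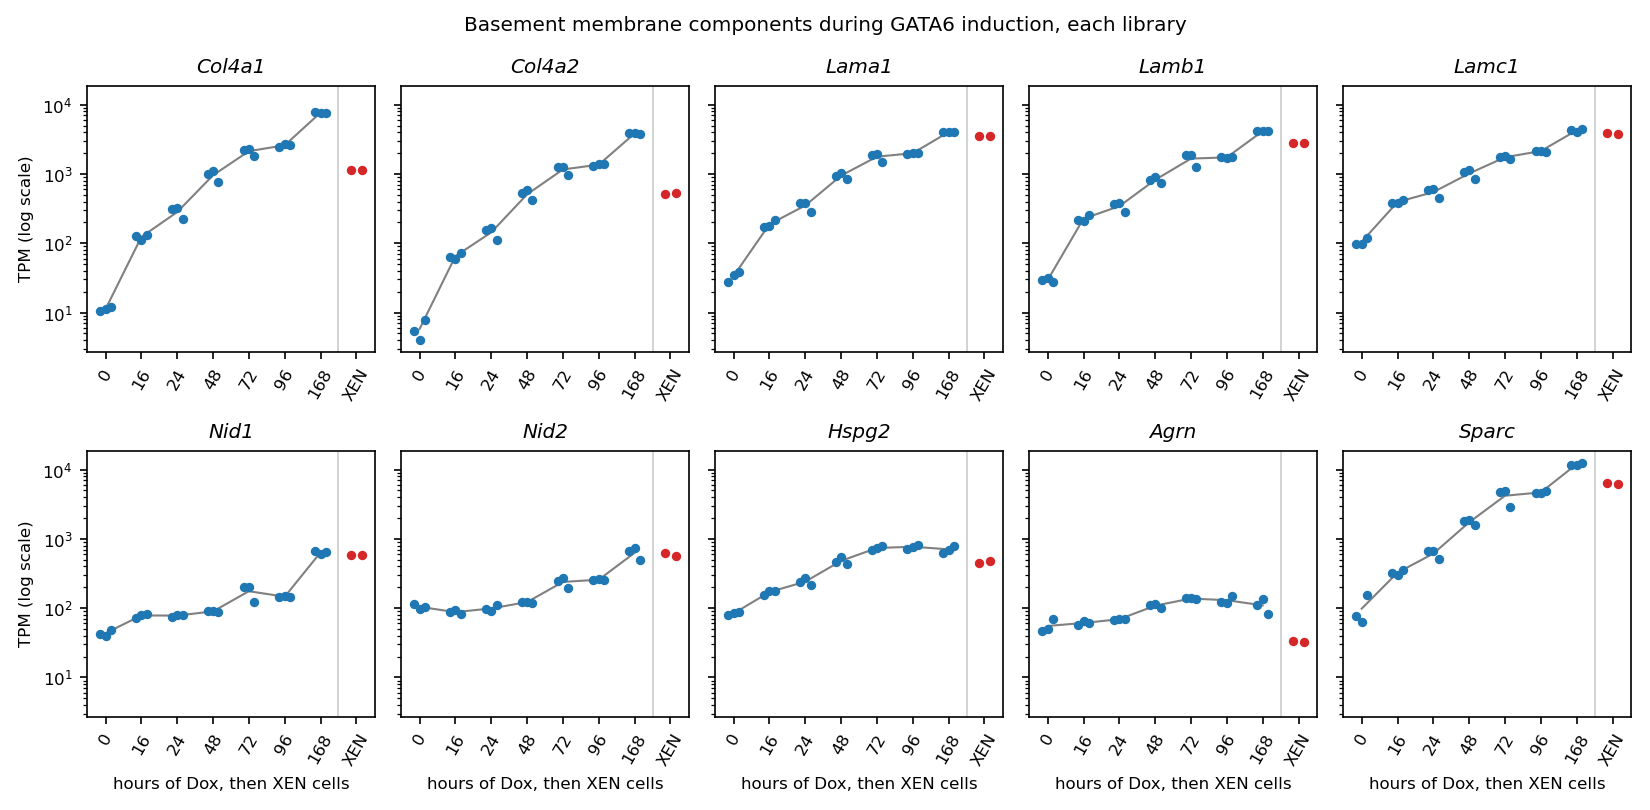
TPM (log axis) of each member in each library over hours of Dox (blue points, grey line through the means) and in XEN cells (red). Collagen IV, laminin chains and Sparc climbed from 16 h to 168 h, the nidogens climbed mainly at the end, and Agrn stayed between 46.8 and 148 TPM during Dox.

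Col4a1 and Col4a2 encode the chains of the common collagen IV trimer. Col4a1 stood at 10.4, 11.2 and 12.04 TPM before Dox, 128, 110 and 132 TPM after 16 h, and 307, 319 and 221 TPM at 24 h. It reached 1004, 1117 and 759 TPM at 48 h and 2253, 2325 and 1832 TPM at 72 h. At 96 h it was at 2462, 2670 and 2663 TPM, and at 168 h it was at 7905, 7559 and 7654 TPM. No library of a time point overlapped with those of an earlier one. The log2 change of Col4a1 against 0 h was 3.35 ± 0.14 (SE) at 16 h (limma adjusted p = 1.7e-12) and 9.30 at 168 h (adjusted p = 4.9e-20). Col4a2 had the lowest level of all members at 0 h, 5.45, 4.04 and 7.88 TPM, and stood at 3898, 3862 and 3789 TPM at 168 h. Its log2 change was 3.32 ± 0.17 at 16 h and 9.19 at 168 h. These were the largest changes among the members at both times. At 48 h, however, Col4a1 had reached only 12.5% and Col4a2 13.2% of their 168 h means.

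Lama1, Lamb1 and Lamc1 encode the chains of laminin-111, the laminin of the early embryo. Lama1 rose from 27.6, 34.9 and 38.6 TPM at 0 h to 169, 179 and 217 TPM at 16 h and to 4106, 3983 and 4030 TPM at 168 h. Lamb1 rose from 29.5, 31.1 and 27.8 TPM to 218, 207 and 254 TPM at 16 h and 4126, 4146 and 4213 TPM at 168 h. Lamc1, the gamma chain found in most laminins, was already at 98.9, 98.3 and 119 TPM at 0 h and went to 386, 380 and 415 TPM at 16 h and 4349, 4042 and 4450 TPM at 168 h. The 0 h and 16 h libraries did not overlap for any of the 3 chains. The log2 changes at 16 h were 2.45 ± 0.13 (SE) for Lama1, 2.90 ± 0.13 for Lamb1 and 1.90 ± 0.11 for Lamc1, and at 168 h 6.88, 7.10 and 5.34. The chain with the highest starting level thus had the smallest change, and the 3 means at 168 h lay between 4040 and 4280 TPM.

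The nidogens, which bind the laminin gamma chain and collagen IV, responded later. Nid1 was at 41.8, 40.0 and 48.5 TPM at 0 h and 73.0, 79.5 and 82.6 TPM at 16 h. At 48 h it was at 90.1, 91.4 and 87.6 TPM, and at 72 h at 202, 203 and 121 TPM. It stood at 146, 148 and 145 TPM at 96 h and 658, 605 and 653 TPM at 168 h. The libraries of 0 h and 16 h were apart, but the log2 change of 0.84 ± 0.13 (limma adjusted p = 0.00016) was under the fold asked for. At 48 h Nid1 had a log2 change of 1.03, and of 0.98, under the fold, without the second 0 h library. Nid2 was at 115, 95.7 and 103 TPM at 0 h and at 86.4, 92.9 and 82.8 TPM at 16 h, all 3 below the 0 h libraries (log2 change −0.25, adjusted p = 0.22). It reached 250, 271 and 195 TPM at 72 h and 253, 264 and 254 TPM at 96 h. At 168 h it was at 661, 725 and 499 TPM. Its log2 change against 0 h was then 2.56 ± 0.12. From 96 h to 168 h, Nid1 rose by 2.12 and Nid2 by 1.27 on the log2 scale. This was the largest step of each and also the longest in hours.

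Hspg2, which encodes perlecan, rose from 78.6, 84.3 and 88.3 TPM at 0 h to 156, 177 and 178 TPM at 16 h and 467, 543 and 433 TPM at 48 h. It then levelled off, with 701, 728 and 783 TPM at 72 h, 724, 753 and 828 TPM at 96 h and 627, 693 and 796 TPM at 168 h. The last 3 groups overlapped, and the step from 96 to 168 h was −0.13 ± 0.10 on the log2 scale (limma adjusted p = 0.33). Agrn, which encodes agrin, was at 46.8, 49.99 and 68.9 TPM at 0 h and at 57.1, 64.9 and 60.9 TPM at 16 h, within the spread of 0 h. It stood at 140, 139 and 133 TPM at 72 h (log2 change 1.32 ± 0.15, adjusted p = 2.1e-07), 123, 119 and 148 TPM at 96 h, and 110, 137 and 81.0 TPM at 168 h. At 168 h the log2 change was 0.96 (adjusted p = 8.2e-06), under the fold, and it was past the fold without the third 0 h or the third 168 h library. Agrn was the member with the smallest change at 168 h.

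Sparc encodes a secreted glycoprotein that binds collagen IV. It had 77.8, 63.6 and 153 TPM at 0 h, 321, 304 and 351 TPM at 16 h, 1789, 1857 and 1560 TPM at 48 h, and 11826, 11706 and 12470 TPM at 168 h. The third 0 h library was high, yet below all libraries of 16 h. The log2 change was 1.82 ± 0.23 (SE) at 16 h (limma adjusted p = 1.3e-05) and 7.02 at 168 h. In the third 72 h library, the one with high fibroblast markers, Sparc was at 2885 TPM against 4783 and 4907 TPM in the others.

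Calls between neighbouring times fell in 2 stretches, with none from 72 to 96 h. The steps differ in length, and the last is the longest, so their counts and log2 changes are not rates. From 16 to 24 h 2 members were called higher (Col4a1 and Col4a2, 0.232% of all genes), and from 24 to 48 h 5 were (both collagen IV chains, Lama1, Lamb1 and Sparc, 3.12% of all genes). From 48 to 72 h 3 were called higher (Col4a1, Col4a2 and Sparc, 1.95%). From 72 to 96 h none of the members was called (0.671% of all genes), and their log2 changes lay between −0.22 (Nid1) and 0.30 (Lamc1). At an unadjusted p under 0.05, 2 of the 10 members passed in this step. From 96 to 168 h 7 were called (5.23%), all but Lamc1 at 0.99, Hspg2 at −0.13 and Agrn at −0.27. Over all genes, this last step had 787 higher and 368 lower, which became 595 and 513 after median-of-ratios rescaling. Under this rescaling, Lama1, with a log2 change of 1.02 from 96 to 168 h, came to 0.88. Counts of members past a fold of 1 were sensitive to single libraries where a group was spread: without the third 24 h library the count from 16 to 24 h was 4 (Lama1 and Sparc added), and without the third 72 h library the count from 48 to 72 h was 7 (Lama1, Lamb1, Nid1 and Nid2 added). Lamb1 also passed in that step without the first or the second 48 h library. From 24 to 48 h Hspg2 passed without the first or the second 24 h library, without the first or the third 48 h library, and after median-of-ratios rescaling, and Lamc1 passed without the third 48 h library. From 96 to 168 h Lamc1 passed without the second library of either time.

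**Figure D2:**
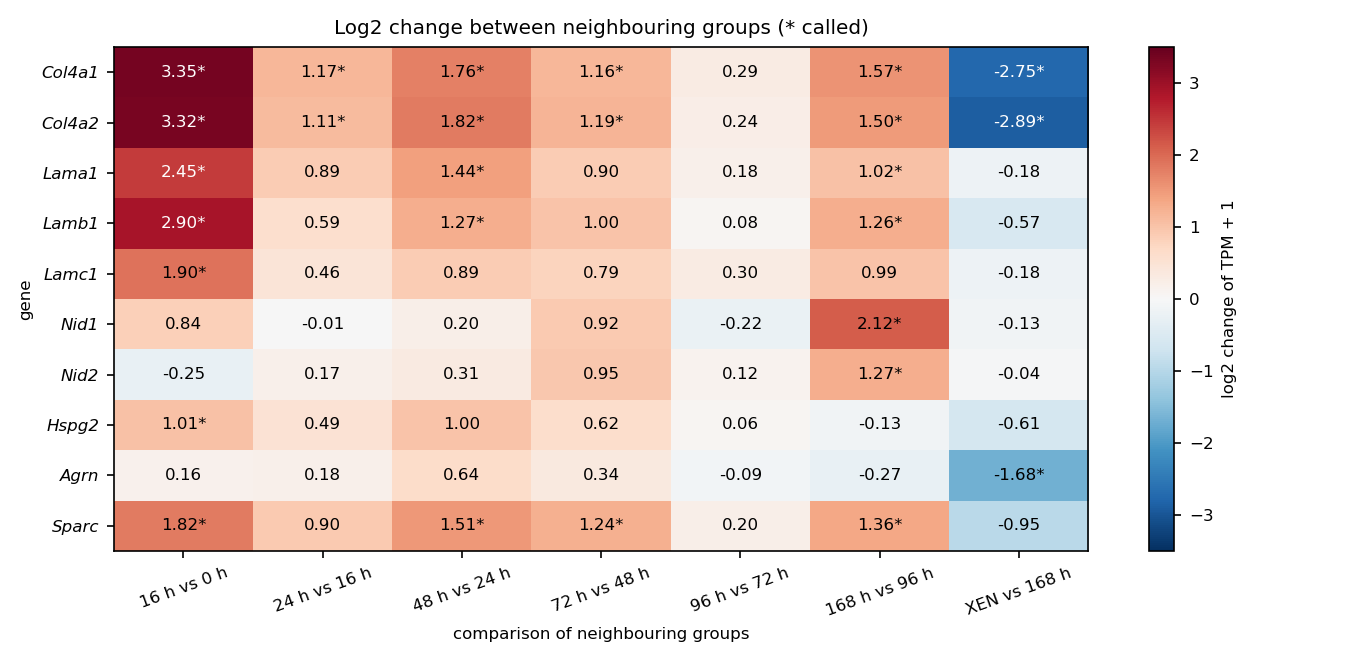
Log2 change of TPM + 1 of each member (rows) between neighbouring groups (columns), with an asterisk where the member was called. The largest step was 0 to 16 h for 7 members, 96 to 168 h for Nid1 (2.12) and Nid2 (1.27), and 24 to 48 h for Agrn (0.64). The 96 h column holds no call, and the steps differ in length.

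Because laminin and collagen IV are assembled from fixed sets of chains, the ratios of chain levels were followed within each library, as a description and with no test in the induction series. The ratio of Lama1 to Lamc1 was 0.320 ± 0.038 (SD, n = 3) before Dox, 0.477 ± 0.042 after 16 h and 0.641 ± 0.011 after 24 h. It reached 0.939 ± 0.071 by 48 h and stood at 0.945 ± 0.040 by 168 h. The ratio of Lamb1 to Lamc1 went from 0.283 ± 0.043 at 0 h to 0.574 ± 0.035 at 16 h, 0.816 ± 0.071 at 48 h and 0.974 ± 0.045 at 168 h. At 72 and 96 h the latter ratio was 0.951 ± 0.160 and 0.809 ± 0.015. The 3 laminin chains therefore went from unequal levels, with Lamc1 above Lama1 and Lamb1, to nearly equal ones at 168 h. The ratio of Col4a2 to Col4a1 was 0.513 ± 0.146 before Dox, 0.528 ± 0.034 after 16 h, 0.532 ± 0.015 after 48 h and 0.4996 ± 0.0098 at 168 h. It stayed between 0.362 and 0.655 in all libraries from 0 to 168 h, extremes that both come from 0 h, while the levels of the pair rose by 688-fold and 665-fold. Collagen IV also gained on laminin, the ratio of Col4a1 to Lamc1 going from 0.107 ± 0.0061 at 0 h to 0.940 ± 0.033 at 48 h and 1.80 ± 0.076 at 168 h.

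**Figure D3:**
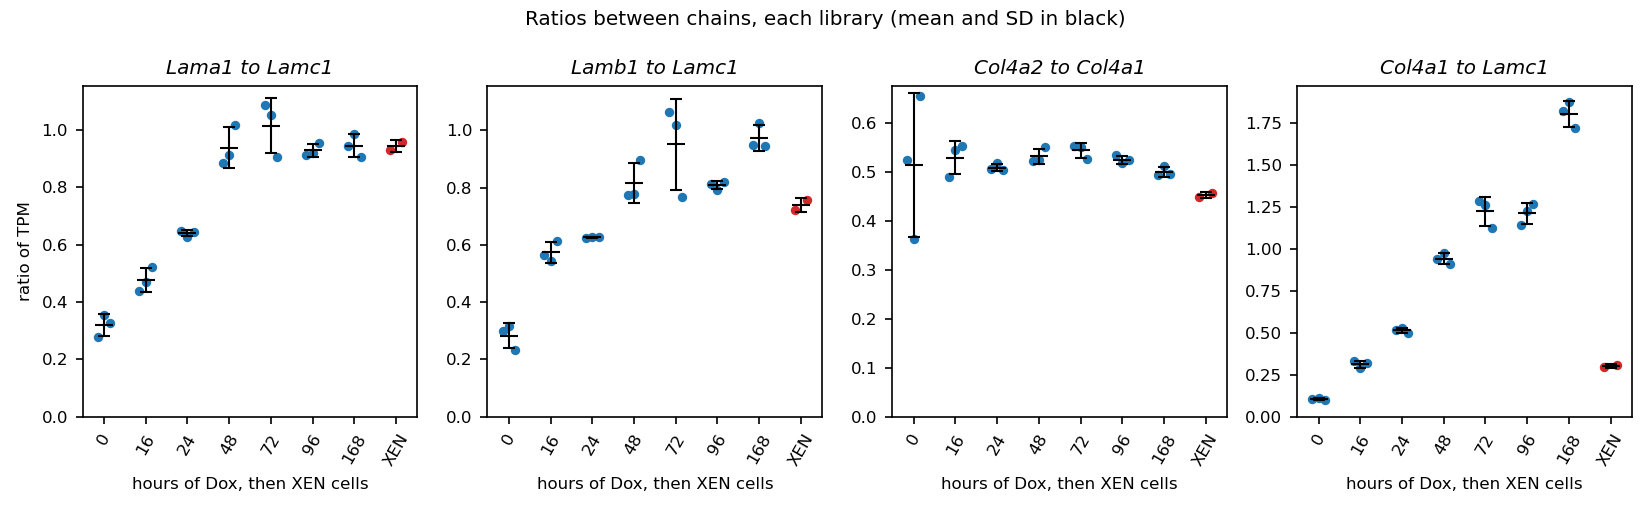
Ratio of TPM between pairs of chains in each library (points; black, mean and SD) over hours of Dox and in XEN cells (red). The laminin ratios approached 1, the collagen IV ratio stayed near 0.5, and Col4a1 to Lamc1 rose to 1.80 at 168 h but was 0.302 in XEN cells.

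XEN cells had far less collagen IV transcript than the 168 h cells, while 2 of 3 laminin chains and both nidogens did not pass the test. Col4a1 was at 1130 and 1156 TPM in XEN cells, below every 72 h library, and Col4a2 at 507 and 528 TPM. Against 168 h the log2 change was −2.75 ± 0.15 (SE) for Col4a1 and −2.89 ± 0.19 for Col4a2 (limma adjusted p = 3.6e-11 and 6.5e-10). Agrn, at 33.6 and 31.9 TPM, was below every library of the Dox series (log2 change −1.68 ± 0.17, adjusted p = 1.3e-07). These 3 were the members called lower (9.17% of all genes), and none was called higher (4.73%). Lama1 (3576 and 3572 TPM), Lamc1 (3846 and 3721 TPM), Nid1 (582 and 583 TPM) and Nid2 (634 and 573 TPM) had log2 changes of −0.18, −0.18, −0.13 and −0.04, with adjusted p-values from 0.26 to 0.83. Lamb1 at −0.57, Hspg2 at −0.61 and Sparc at −0.95 passed the adjusted p but not the fold. The ratio of Col4a1 to Lamc1 was 0.302 ± 0.012 (SD, n = 2), against 1.80 at 168 h, while that of Lama1 to Lamc1 was 0.945 in both. The ratio of Lamb1 to Lamc1 was 0.740 ± 0.024 in XEN cells, below every 168 h library (0.947 to 1.03). Over all genes, 712 were higher and 1380 lower in XEN cells, which became 930 and 1076 after median-of-ratios rescaling. Against 0 h, 9 of 10 members were called higher in XEN cells (18.9% of all genes), Agrn having a log2 change of −0.72. Line, strain, LIF and transgene differ together between XEN and Dox-treated cells, so their parts cannot be told apart.

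Levels per transcript also changed their order. At 0 h the highest were Lamc1 (105 TPM), Nid2 (104 TPM) and Sparc (98.3 TPM), whose libraries overlapped, and the lowest were Col4a1 (11.2 TPM) and Col4a2 (5.79 TPM), which did not overlap with their neighbours. At 168 h the order was Sparc (12001 TPM), Col4a1 (7706 TPM), Lamc1, Lamb1, Lama1 (4040 TPM) and Col4a2 (3849 TPM). The libraries of Lamc1 (4042 to 4450 TPM) overlapped with those of Lamb1 and with those of Lama1 (3983 to 4106 TPM). Hspg2 (705 TPM), Nid1 (639 TPM) and Nid2 (628 TPM) overlapped with their neighbours, and Agrn was lowest (110 TPM). In XEN cells Sparc (6223 TPM) was again first, but the 3 laminin chains came before Col4a1, and Col4a2 (517 TPM) stood below Nid2 (603 TPM) and Nid1 (583 TPM), which overlapped.

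Other basement membrane genes did not rise as a block. Of 30 listed, 20 were tested, and at 16 h none was called higher and 1, Ntn1, was called lower (0.804% of all genes). At 168 h 8 were called higher and 5 lower (22.6% of all genes were higher and 16.5% lower), with a median log2 change of 0.48, beside 0.09 over all genes. Tinagl1, a secreted protein of basement membranes, rose from 6.00 ± 2.4 to 896 ± 258 TPM (SD, n = 3), and Pxdn, the peroxidase that cross-links collagen IV, from 3.99 ± 0.29 to 233 ± 15 TPM. Lamb2, an alternative beta chain, rose from 9.92 ± 1.2 to 84.9 ± 12 TPM, and the protease inhibitor Timp3 from 8.32 ± 5.8 to 73.3 ± 8.6 TPM. Egflam (pikachurin), at 0.0440 ± 0.023 TPM before Dox, was at 24.2 ± 9.9 TPM, and Fbln2 (fibulin-2) had 23.8 ± 4.7 and 22.5 ± 4.5 TPM with a log2 change of −0.08. The called genes that fell most on the log2(TPM + 1) scale were Col18a1, the collagen XVIII gene, from 140 ± 9.6 to 4.02 ± 0.25 TPM, Ntn1 (netrin-1), from 30.8 ± 5.0 to 1.96 ± 0.93 TPM, and Lama5, from 62.4 ± 11 to 12.4 ± 3.6 TPM. Lama5, an alternative laminin alpha chain, was thus above Lama1 before Dox, with 50.4 to 71.8 TPM against 27.6 to 38.6 TPM, and far below it at 168 h.

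Of 14 receptors listed, 13 were tested, 1 was called higher at 16 h (Sdc4) and at 168 h 3 were higher and 2 lower, with a median log2 change of −0.08. These shares were near those over all genes (22.6% higher and 16.5% lower). Itgb1, the beta chain of the main laminin- and collagen-binding integrins, rose from 70.2 ± 4.7 to 320 ± 8.8 TPM (SD, n = 3) and stood at 646 TPM in XEN cells, where it was called higher than at 168 h. Sdc4, the cell surface proteoglycan syndecan-4, rose from 40.4 ± 4.5 to 308 ± 97 TPM. Robo1 rose from 9.65 ± 0.92 to 38.3 ± 12 TPM. Itga6, the alpha chain of laminin-binding integrins, was at 87.4 ± 1.9 and 48.8 ± 12 TPM (log2 change −0.86, under the fold) and at 135 TPM in XEN cells, called higher than at 168 h.

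**Figure D4:**
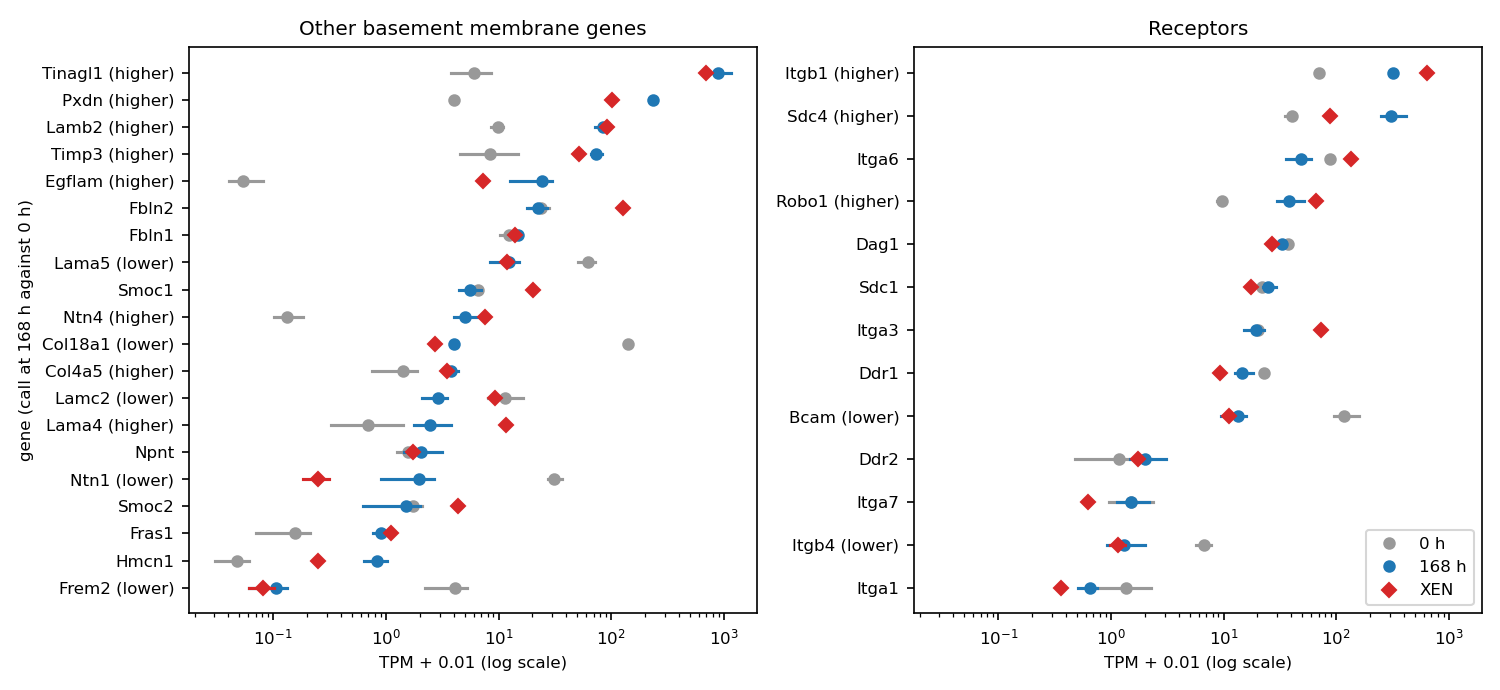
Mean TPM + 0.01 (log axis) of other basement membrane genes and receptors at 0 h (grey), 168 h (blue) and in XEN cells (red); bars span the lowest to the highest library, and labels give the call at 168 h against 0 h. Of 20 basement membrane genes 8 were called higher and 5 lower, and of 13 receptors 3 and 2, where 22.6% of all genes were higher and 16.5% lower.

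The profile of the members, taken as the mean of their standardised profiles over the 8 group means, was compared with 596 other genes that had at least 50 TPM at 168 h and a log2 rise of at least 2. Among the 8 most alike were Scube2 (Pearson r = 0.993), Ckap4 (an endoplasmic reticulum membrane protein, 0.991), Pdia6 (a disulfide isomerase of the endoplasmic reticulum, 0.989), Gpx8 (a peroxidase of the endoplasmic reticulum, 0.989), Creb3l2 (0.989), Hpcal1 (0.989) and Lmf2 (0.989). Pdia6 went from 210 TPM at 0 h to 952 TPM at 168 h and 708 TPM in XEN cells. These values describe 8 points that share libraries, and the genes were chosen as the highest of many. Among the members, r with the same profile, which each member helped to form, was highest for Sparc (0.996) and lowest for Nid1 (0.854), Nid2 (0.829) and Agrn (0.431). Col4a1 and Col4a2 had r = 1.000 with each other, and Agrn had r = −0.04 with Nid1.

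The siRNA series addressed whether Oct4 contributes to the GATA6 response at 48 h. Pou5f1, which encodes Oct4, was at 782 to 1194 TPM with siCTL and 282 to 387 TPM with siOct4, with no overlap. Gata6 was at 92.6 to 198 TPM with siCTL and 51.2 to 130 TPM with siOct4. None of the 10 members was called at an adjusted p under 0.05 and a log2 change past 0.5, lower (1.72% of the 6264 genes tested) or higher (0.942%). The unadjusted limma p was under 0.05 for 2 of them, Hspg2 and Agrn. With the replicate number as a block, which takes same-numbered libraries as pairs, again none was called, while 6.15% of all genes were called lower. The members' median log2 change was −0.19, beside −0.12 over the whole table, a shift that median-of-ratios rescaling took to 0.01. That rescaling also changed the split over all genes from 59 higher and 108 lower to 144 and 153. In the fit without a block none of the 7 PrE markers was called either, with a median log2 change of −0.71. The PrE markers summed to 990 to 2804 TPM with siCTL and 491 to 1117 TPM with siOct4. The lack of calls therefore does not show that levels were unchanged.

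Hspg2 ran from 175 to 420 TPM with siCTL (median 226) and from 113 to 242 TPM with siOct4 (median 166). It was lower in 5 of 6 pairs, with a log2 difference of −0.58 ± 0.24 (SE, limma adjusted p = 0.27; 0.059 with the block). Agrn ran from 40.1 to 109 TPM (median 61.98) and from 25.3 to 62.4 TPM (median 44.4), and was lower in 6 of 6 pairs by −0.56 ± 0.26 (adjusted p = 0.35; 0.10 with the block). Both proteoglycan genes thus had the largest differences, and the groups overlapped for each. Lama1 ran from 743 to 1677 TPM (median 918) and from 551 to 961 TPM (median 906), with a difference of −0.33 ± 0.20. Sparc ran from 1945 to 2845 TPM (median 2075) and from 1694 to 2962 TPM (median 2210), with a difference of 0.01 ± 0.14, the narrowest error among the members. Col4a1 ran from 569 to 1864 TPM (median 770) and from 464 to 1188 TPM (median 968), a difference of −0.02 ± 0.28. The remaining members had differences between −0.24 (Lamb1) and −0.03 (Nid2).

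The fourth siCTL library stood apart, being the highest of its group for 10 of 10 members. Gata6 was at 198 TPM there, against 92.6 to 112 TPM in the other siCTL libraries, and the PrE markers summed to 2804 TPM against 990 to 1496 TPM. Its part in the results was not tested beyond leaving it out. Without it none of the members was called, Hspg2 had a log2 difference of −0.43 and Agrn of −0.41, and those of Col4a1, Col4a2 and Nid2 were 0.20, 0.11 and 0.17. The fibroblast markers in this table (7 of 16) summed to 32.7 to 229 TPM with siCTL and 34.6 to 235 TPM with siOct4, and were at 0 in no group. In order of replicate number the sums were 213, 199, 32.7, 229, 44.3 and 53.3 TPM with siCTL. In the same order they were 73.1, 68.1, 42.9, 34.6, 235 and 212 TPM with siOct4. The part of feeder RNA in the differences within pairs was not tested.

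**Figure D5:**
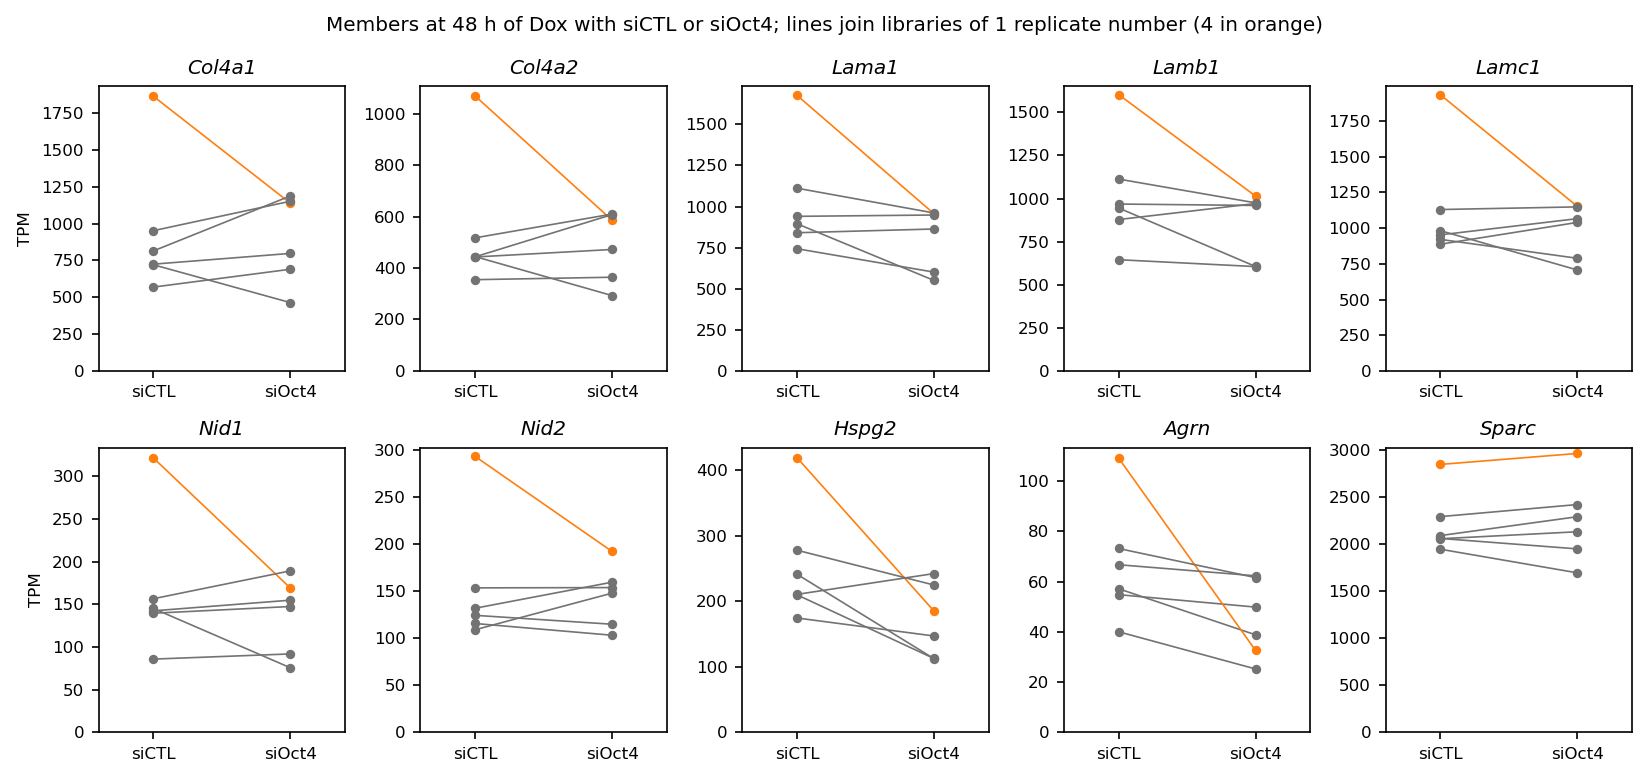
TPM of each member after 48 h of Dox with siCTL or siOct4, from 0 on each axis; lines join the libraries of 1 replicate number, the fourth in orange. The groups overlap for all 10 members, and the fourth siCTL library is the highest of its group in every panel.

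Differences in 3 chain ratios were then tested by exact permutation (two-sided, 924 arrangements of the siRNA libraries), with p-values adjusted over the 3. The ratio of Lama1 to Lamc1 was 0.917 ± 0.070 with siCTL and 0.821 ± 0.045 with siOct4 (SD, n = 6), lower in 6 of 6 pairs by −0.16 on the log2 scale (exact permutation p = 0.026, adjusted 0.078). The ratio of Col4a2 to Col4a1 was 0.585 ± 0.036 and 0.551 ± 0.049, lower in 5 of 6 pairs (exact permutation p = 0.18, adjusted 0.28). The ratio of Lamb1 to Lamc1 was 0.913 ± 0.123 and 0.864 ± 0.057 (exact permutation p = 0.47, adjusted 0.47). No ratio passed after adjustment. For Lama1 to Lamc1 the adjusted value was 0.019 without the third siCTL library and 0.045 after a correction for gene length.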

How the data were processed

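RNA-seq libraries were stranded and polyA selected. Reads were aligned to mm10 with STAR and quantified with RSEM by the authors, who omitted outliers found by principal component analysis and deposited TPM values; tool versions and the annotation are not given in the sources used here. The deposited siRNA table holds responsive genes only, and its class and mean columns, which give the authors' own comparisons, were not used. Groups and replicate numbers came from the sample titles. The members, gene lists and tests were chosen with earlier results of these data known.

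Of 44915 rows, symbols on more than 1 row (60) kept the row with the highest mean. Genes whose mean reached 1 TPM in any group were tested on log2(TPM + 1) with limma 3.58.1 in R 4.3.3 (trend and robust options, Benjamini-Hochberg adjustment), with 1 coefficient per group and no block. A log2 change on this scale understates that of low genes. The fits were tested on simulated data. Exact tests used Python 3.11.15. Gene positions and exon lengths came from GENCODE M21, and promoter sequences from RefSeq (GRCm38.p6). Depth is unknown, since TPM keeps none.

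All 10 members are described. Other basement membrane genes were named by the highest 168 h mean (up to 6) or the largest falls among those called (3), receptors by the highest 168 h mean (4), and genes alike by the highest correlation (8, of which 1 is not reported here). Same-numbered siRNA libraries deviated together (correlation of deviations 0.24 to 0.71, mean 0.33, over 6 pairs). Different-numbered ones ran from −0.56 to 0.46 (mean −0.06). The second siCTL library fitted the first siOct4 library (0.34) better than the second (0.24). The numbers were taken as pairs, which these values do not settle. For endogenous Gata6 the study itself used a paired t test over its independent knockdowns. The sample titles give only the numbers. Same-numbered libraries of the induction series did not deviate together (mean 0.03). Alternatives were median-of-ratios rescaling, other filters (none, 5 TPM), a pseudocount of 0.1, the 2 compared groups alone, a replicate block and each library left out. A gene length correction was added after seeing the data.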

Additional observations from a re-analysis of the deposited data

Results flagged for a closer look

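In 30 sets of 6 libraries (10 members and 5 chain ratios, siCTL and siOct4, log2 scale), 4 had 1 library far from the other 5, where chance gives about 1 in 20. The sets share libraries, and the ratios are made from the members. The sets are therefore not independent, and the count of 4 is no test against that rate. In the fourth siCTL library, Col4a2 was at 10.06 on the log2(TPM + 1) scale, the others lying between 8.47 and 9.02. In the same library Lamc1 was at 10.92, against 9.80 to 10.14, and Nid2 was at 8.20, against 6.78 to 7.27. In the third siCTL library the log2 ratio of Nid1 to Lamc1 was −3.42, against −2.85 to −2.59.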

How the results depend on the processing

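Of 231 member counts and ratio differences recomputed under an alternative, 227 kept their side of the threshold or stayed within 1.5 times of the reported count. Leaving out 1 library each gave 2 to 4 members called from 16 to 24 h and 3 to 7 from 48 to 72 h; the highest counts came without the third library of 24 h and of 72 h. The siOct4 difference in the log2 ratio of Lama1 to Lamc1 passed the threshold after the gene length correction, which was chosen after seeing the data (−0.15, exact permutation adjusted p = 0.045), and without the third siCTL library, its range over left-out libraries being −0.19 to −0.14. The siOct4 differences of 5 members, none of them called, changed sign under some alternative. After median-of-ratios rescaling Col4a1 came to 0.13, Col4a2 to 0.045 and Nid2 to 0.12, and Col4a1 to 0.021 after the length correction with or without the replicate block. Over left-out libraries Col4a1 ranged from −0.14 to 0.20, Col4a2 from −0.21 to 0.11, Nid1 from −0.38 to 0.00050, Nid2 from −0.11 to 0.17 and Sparc from −0.078 to 0.083. The cause was not tested. In fits that took the replicate number as a block, the paired ratio tests gave adjusted p-values of 0.094, 0.094 and 0.31 (exact sign flips), 0 members were called with siOct4, and the block changed no call of a member in either series. Over the siRNA table the block moved the calls from 59 higher and 108 lower to 152 and 385. With 64 sign flips the exact sign-flip p-value cannot go under 0.03125, the value for Lama1 to Lamc1. A single ratio at that floor could not pass after adjustment over 3. Rescaling moved the median of all genes from 0.09 to −0.05 at 168 h against 0 h and from −0.14 to −0.02 in XEN cells against 168 h.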

Other observations

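Of the other basement membrane genes listed, 10 stayed under 1 TPM in the mean of every group. These were Lama2, Lama3, Lamb3, Lamc3, Col4a3, Col4a4, Col4a6, Col15a1, Frem1 and Papln. They include 3 of the 4 further collagen IV chains, named here after their values were seen, and the fourth, Col4a5, went from 1.41 to 3.81 TPM between 0 and 168 h, a log2 change of 1.03.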
